A study of Mus musculus with 4 samples.

Results

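The clustered protocadherins are cell-surface adhesion proteins encoded by tandem arrays of near-identical genes, and their transcripts were followed here in single nuclei sorted from the mouse hippocampus. The members are the rows whose mouse symbol starts with Pcdha, Pcdhb or Pcdhg followed by a letter, a digit or c. This rule found 58 of the 25567 gene rows in each table, made up of 14 alpha, 22 beta and 22 gamma genes. They lie side by side on chromosome 18 in build GRCm38, at chr18:36930184-37841873. One pair of rows carried the same symbol, Pcdha11; the row ENSMUSG00000007440, which starts at 37005203 where RefSeq places Pcdha10, is called Pcdha10 here, and ENSMUSG00000102206 is called Pcdha11.

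Each alpha and gamma gene is a variable first exon with its own promoter, spliced to constant exons that all genes of its cluster share. The variable exon encodes the outer part, the membrane span and the start of the tail, and the constant exons encode the common end of the tail. Beta genes have no constant exons. In most neurons studied so far, a neuron switches on a small, largely random set of these promoters by CTCF- and cohesin-dependent looping to distant enhancers, while the C-type genes at the ends of the alpha and gamma clusters follow cell type more than chance. The proteins bind only matching copies on another membrane, which lets sister branches of one neuron recognise and avoid each other.

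There were 4 libraries of single nuclei from mice aged 8.5 months, each holding 384 wells with up to 1 nucleus apiece. Smart-seq2 was used, in which whole transcripts are amplified well by well and molecules are not tagged before amplification. They were EdU+ Fasn-R1812W, EdU+ WT, NeuN+ Fasn-R1812W and NeuN+ WT, with 1 library in each group. EdU+ nuclei had taken up the thymidine analogue EdU, injected at 100 mg per kg 2 times daily over 3 days with isolation on day 4, and NeuN+ nuclei were stained for a neuronal nuclear protein. Fasn-R1812W mice carry an amino acid change in fatty acid synthase, and WT mice do not. How many animals gave each library is not stated in the labels, and since a point change cannot be read from gene counts, the genotype labels were not checked.

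The libraries held 96597804, 36368990, 72468235 and 71221156 counted reads in the order just given, and nuclei with 1000 or more detected genes and 50000 or more reads were kept. This left 348, 167, 301 and 314 nuclei, with medians of 224967, 80771, 175328 and 213337 reads. The EdU+ WT library therefore stood apart, with fewer kept nuclei, fewer reads per nucleus and a median of 1298 detected genes, against 3006, 4417 and 4395.5 in the EdU+ Fasn-R1812W, NeuN+ Fasn-R1812W and NeuN+ WT libraries. Some marker genes separated the gates and others did not. Rbfox3, which encodes NeuN, had at least 10 reads in 4.6%, 4.8%, 57.8% and 51.6% of kept nuclei, and Snap25, a gene of the synaptic release machinery, in 38.2%, 35.9%, 98.3% and 99.4%. Pdgfra, the defining receptor of oligodendrocyte precursors, reached 10 reads in 227 of 348 EdU+ Fasn-R1812W nuclei and in 124 of 167 EdU+ WT nuclei. Most EdU+ nuclei thus carried a precursor marker, and how many of these also carried Snap25 was not counted. Mbp, a myelin gene, reached 10 reads in 13.5% and 12.6% of EdU+ Fasn-R1812W and EdU+ WT nuclei, against 21.3% and 23.9% of NeuN+ Fasn-R1812W and NeuN+ WT nuclei, and Mki67, a gene of dividing cells, in 7.8% and 10.2%, against 10.6% and 9.9%. Ptprc, a leukocyte and microglia gene, reached 10 reads in 20.4% of EdU+ Fasn-R1812W nuclei, 2.4% of EdU+ WT nuclei, 0.3% of NeuN+ Fasn-R1812W nuclei and none of the NeuN+ WT nuclei. Intervals are exact Poisson for counts and Clopper-Pearson for shares, at 95%, and express counting error alone, because amplified copies of a molecule are counted again.

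The deposited alpha and gamma rows turned out to hold mostly the same reads. In the annotation of the same build, 2860 bases of constant exon belong to all 14 alpha rows and 2116 bases to all 22 gamma rows. In a median EdU+ Fasn-R1812W nucleus, 13 of the 14 alpha rows and 21 of the 22 gamma rows held exactly the cluster's lowest value. In the other libraries that median was 13 or 14 rows for alpha and 20 or 21 rows for gamma. A read in a constant exon had thus been counted once in every row of its cluster. The lowest value of a cluster in a nucleus is called its shared reads, and what a row holds beyond it is called its own reads, which come mostly from the variable exon. Shared reads made up 95.3%, 98.5%, 96.0% and 97.0% of the deposited alpha reads and 97.6%, 98.1%, 95.8% and 95.9% of the deposited gamma reads in EdU+ Fasn-R1812W, EdU+ WT, NeuN+ Fasn-R1812W and NeuN+ WT. The beta rows had no shared bases, and all their reads are own reads, apart from 455 bases where the exons of Pcdhb21 and Pcdhb22 overlap. In the gamma cluster, 1038 bases lie in both Pcdhgb1 and Pcdhga4 and 108 in both Pcdhgb4 and Pcdhga8, and reads there count as own reads of both rows. Further reads may be split or shared between close copies of the variable exons, and how far was not tested.

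This double counting sets what a count of rows means. Taken as deposited, with a row called on at 10 reads or more, a median nucleus had 2, 2, 15 and 18 rows on in EdU+ Fasn-R1812W, EdU+ WT, NeuN+ Fasn-R1812W and NeuN+ WT. Beside nuclei with few or no rows on, nuclei piled up near 14, 22 and 36 rows, the sizes of the alpha cluster, the gamma cluster and both. In EdU+ Fasn-R1812W and EdU+ WT, 106 and 40 nuclei had no row on, and the pile lay mostly near 22. There 105 and 59 nuclei had at least 10 shared reads of gamma alone, 24 and 6 of alpha alone, and 17 and 13 of both. Counted by own reads, a median nucleus had 1 isoform on in EdU+ Fasn-R1812W, EdU+ WT and NeuN+ Fasn-R1812W and 2 in NeuN+ WT. The mean was 1.23 isoforms in EdU+ Fasn-R1812W, 0.66 in EdU+ WT, 1.79 in NeuN+ Fasn-R1812W and 2.09 in NeuN+ WT. No nucleus of any library had more than 9 of the 58 isoforms on.

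**Figure D1:**
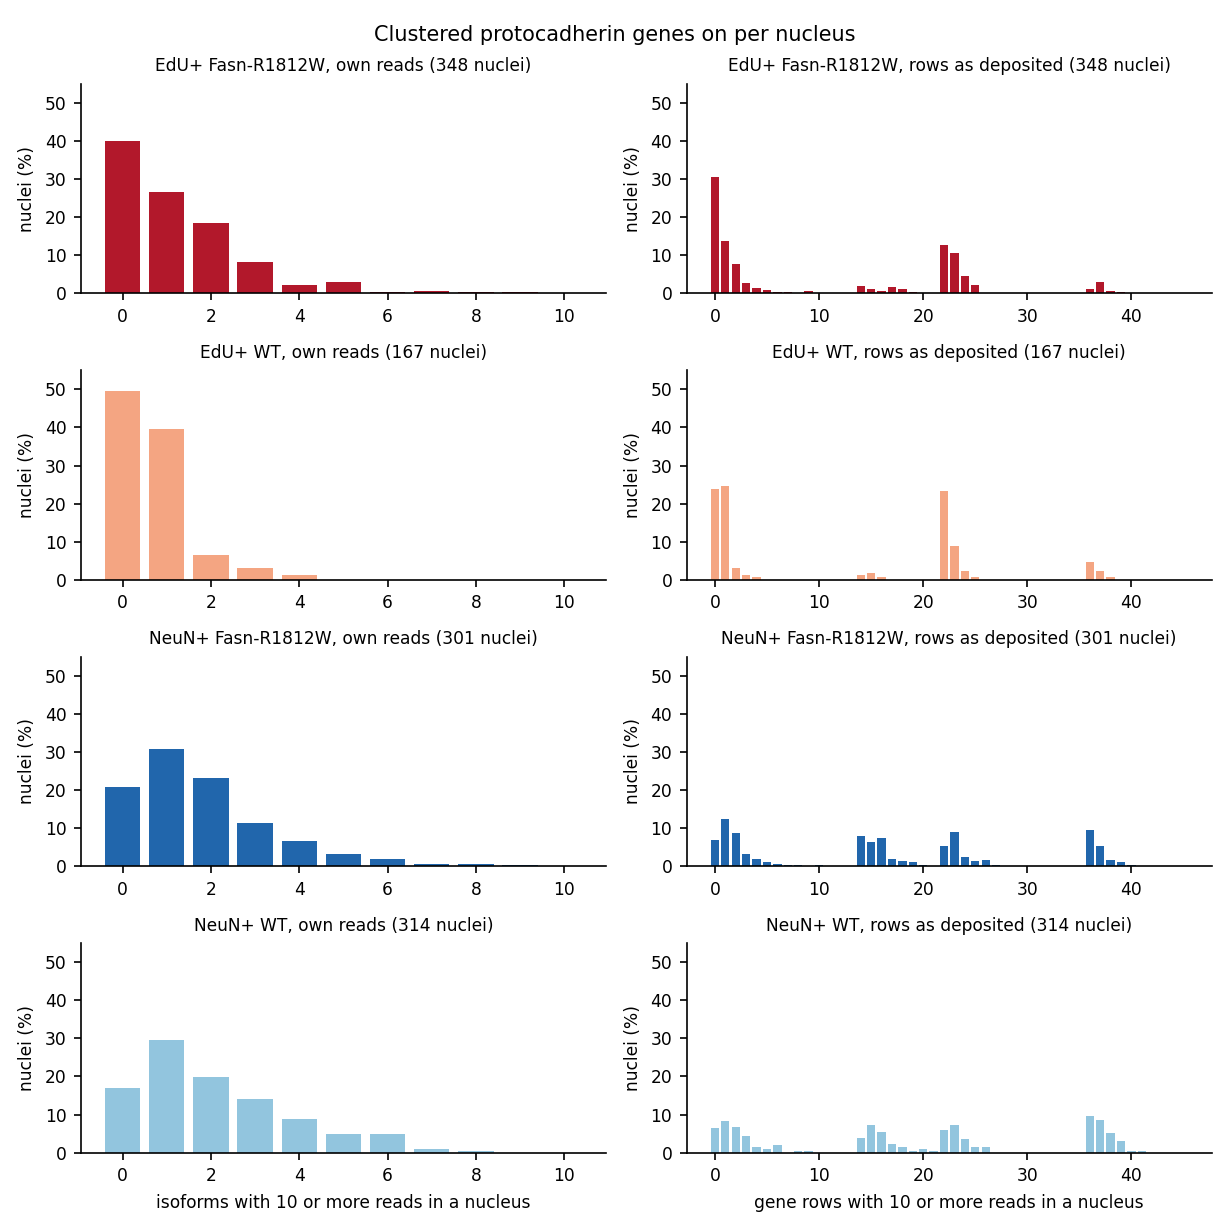
Number of clustered protocadherin isoforms with at least 10 reads per nucleus (x) against the share of kept nuclei in percent (y), for EdU+ Fasn-R1812W, EdU+ WT, NeuN+ Fasn-R1812W and NeuN+ WT from top to bottom. With own reads (left) most nuclei had 0 to 5 isoforms on. With the rows as deposited (right), nuclei with many rows on pile up near 14, 22 and 36 rows, mostly near 22 in EdU+.

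A nucleus with no isoform on was more frequent in the EdU+ libraries, at 39.9% of EdU+ Fasn-R1812W and 49.7% of EdU+ WT nuclei, against 20.9% of NeuN+ Fasn-R1812W and 16.9% of NeuN+ WT nuclei. Exactly 1 isoform was on in 93, 66, 93 and 93 nuclei of the same libraries, and 2 to 5 were on in 111, 18, 134 and 149. More than 5 were on in 5, 0, 11 and 19 nuclei, so at this limit most nuclei of every library had a small set. With 1 read as on, the median was 3, 1, 4 and 4 isoforms, and more than 5 were on in 15.2%, 0.6%, 24.3% and 32.8% of nuclei. Depth moved these numbers: with every nucleus thinned to 50000 reads the mean number on was 0.86, 0.57, 0.75 and 0.91, and at least 1 isoform was on in 50.3%, 46.7%, 53.5% and 58.6% of nuclei. The gap between gates seen at full depth, 60.1% and 50.3% of nuclei against 79.1% and 83.1%, was therefore smaller at matched depth.

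Shared reads were often present where no variable exon reached the limit. Of the nuclei with at least 10 shared alpha reads, 41, 19, 133 and 154 in EdU+ Fasn-R1812W, EdU+ WT, NeuN+ Fasn-R1812W and NeuN+ WT, 65.9%, 89.5%, 73.7% and 68.8% had no alpha isoform on by own reads, and 21.95%, 10.5%, 21.1% and 26.0% had exactly 1. For gamma, with 122, 72, 114 and 148 such nuclei, 63.1%, 84.7%, 51.8% and 50% had none on and 27.9%, 12.5%, 30.7% and 33.1% had exactly 1. No variable exon in use could thus be read in 50% or more of these nuclei, in either cluster and in each library. Per kilobase of exon, the shared alpha exons stood at 37.3, 39.4, 49.8 and 60.6 reads per 1e6 reads of the library (CPM) per kb, and the own reads of all alpha genes together at 23.5, 7.38, 26.6 and 24.1 CPM per kb. The shared gamma exons stood at 157, 202, 65.2 and 76.5 CPM per kb and the gamma own reads at 55.9, 53.0, 39.3 and 46.5 CPM per kb.

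Most nuclei with an alpha isoform on had exactly 1. Isoforms that are seldom on are seldom found together, however they are chosen, so this share does not measure exclusivity. At least 1 of the 12 alpha genes other than the C-type ones was on in 42 EdU+ Fasn-R1812W, 8 EdU+ WT, 62 NeuN+ Fasn-R1812W and 82 NeuN+ WT nuclei, and exactly 1 was on in 83.3%, 100%, 83.9% and 81.7% of those. The leading alpha isoform held a median of 100% of a nucleus's own alpha reads in each library. The alpha genes encode outer domains that pair with the same isoform on another cell and a tail that binds actin regulators and Fyn. Pcdha11 was on most often, in 4.31%, 2.40%, 10.3% and 12.4% of nuclei, with levels of 23.75, 10.04, 30.60 and 30.02 CPM. Its own 4675 bases include 2486 that overlap the antisense gene Gm10545, whose reads cannot be told apart from it without a stated strand setting. Pcdha8 was on in 1.44%, 0.60%, 2.99% and 5.10% of nuclei, and Pcdha12 in 1, 0, 8 and 10 nuclei. Pcdha1 and Pcdha2 were the rarest, on in 1, 0, 1 and 0 nuclei and in 0, 0, 1 and 0 nuclei.

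Beta isoforms were read most often, and among nuclei with any on, the share with exactly 1 was lower than for alpha or gamma. A group that is on more often is also found more often with several on, so this share does not measure exclusivity. At least 1 of the 22 beta genes was on in 147 EdU+ Fasn-R1812W, 52 EdU+ WT, 154 NeuN+ Fasn-R1812W and 190 NeuN+ WT nuclei, of which 58.5%, 78.8%, 55.8% and 51.6% had exactly 1 on. The leading beta isoform held a median of 94.1%, 100%, 73.4% and 76.9% of the own beta reads. The beta proteins lack the constant tail of the alpha and gamma proteins. Pcdhb16 was on in 5.46%, 4.19%, 8.64% and 15.6% of nuclei, at 44.5, 36.8, 25.2 and 44.0 CPM. Pcdhb17 was on in 5.17%, 0.60%, 9.63% and 12.7%, and Pcdhb19 in 2.59%, 2.40%, 8.97% and 11.8%. All 3 were on in a higher share of NeuN+ than of EdU+ nuclei of the same genotype. Pcdhb9 showed the other order, on in 10.3% of EdU+ Fasn-R1812W and 7.78% of EdU+ WT nuclei against 2.66% of NeuN+ Fasn-R1812W and 5.10% of NeuN+ WT nuclei. Pcdhb1, at the edge of the beta array, had no nucleus on in any library, and of the rest 20, 18, 20 and 21 were on in at least 1 nucleus.

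Most nuclei with a gamma isoform on likewise had exactly 1, a share that does not measure exclusivity here either. At least 1 of the 19 gamma A and gamma B genes was on in 76 EdU+ Fasn-R1812W, 26 EdU+ WT, 108 NeuN+ Fasn-R1812W and 137 NeuN+ WT nuclei, and exactly 1 was on in 84.2%, 88.5%, 71.3% and 75.2% of those. The gamma cluster is needed for the survival of many interneurons and for dendrite self-avoidance in mouse retina. Pcdhga12, the last gamma A gene, was on in 7.18%, 2.40%, 9.97% and 11.8% of nuclei, at 32.1, 6.65, 17.2 and 20.4 CPM. Pcdhgb4 was on in 3.16%, 3.59%, 10.3% and 10.8%, at 33.0, 34.5, 26.2 and 28.9 CPM. These were the most frequent gamma A and gamma B members in the NeuN+ libraries. Pcdhga11 was on in 10, 6, 13 and 22 nuclei and Pcdhga9 in 3, 2, 13 and 11. Pcdhgb5 was on in 2, 0, 5 and 12 nuclei and Pcdhgb8 in 0, 0, 3 and 5. Pcdhga1, with 2, 0, 1 and 1 nuclei, and Pcdhgb2, with 1, 0, 2 and 0, were the least frequent. The antisense gene Gm26672 overlaps 2613 own bases of Pcdhga10, 1381 of Pcdhga11, 771 of Pcdhgb7 and 422 of Pcdhga12.

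In most nuclei of every library no C-type isoform was on by own reads, which does not show that these genes were silent. Shared reads were often present where no variable exon reached the limit, so a C-type isoform in use can be missed. At least 1 of the 5 was on in 38 of 348 EdU+ Fasn-R1812W, 8 of 167 EdU+ WT, 54 of 301 NeuN+ Fasn-R1812W and 34 of 314 NeuN+ WT nuclei, and a single one in 36, 8, 53 and 31 of those. Pcdhgc4, the isoform on which interneuron survival rests in mice, was on in 6.90%, 1.80%, 7.31% and 4.46% of nuclei, at 31.5, 19.6, 27.8 and 13.3 CPM. Pcdhgc5 was on in 2.87%, 1.80%, 5.98% and 4.78%, at 8.46, 33.5, 11.8 and 8.79 CPM. Both were present in all 4 libraries, and 88.5% of the Pcdhgc5 reads of EdU+ WT lay in 1 nucleus. Pcdhac2, which serotonin axons need to space themselves in mice, was on in 1, 1, 8 and 5 nuclei, at 9.05, 6.32, 11.8 and 2.0 CPM. In EdU+ Fasn-R1812W and EdU+ WT a single nucleus held 99.2% and 100% of the Pcdhac2 reads. Pcdhgc3 was on in 4, 1, 2 and 2 nuclei and Pcdhac1 in 1, 0, 5 and 1. BC037039, an antisense gene, overlaps 1559 bases of Pcdhgc3.

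**Figure D2:**
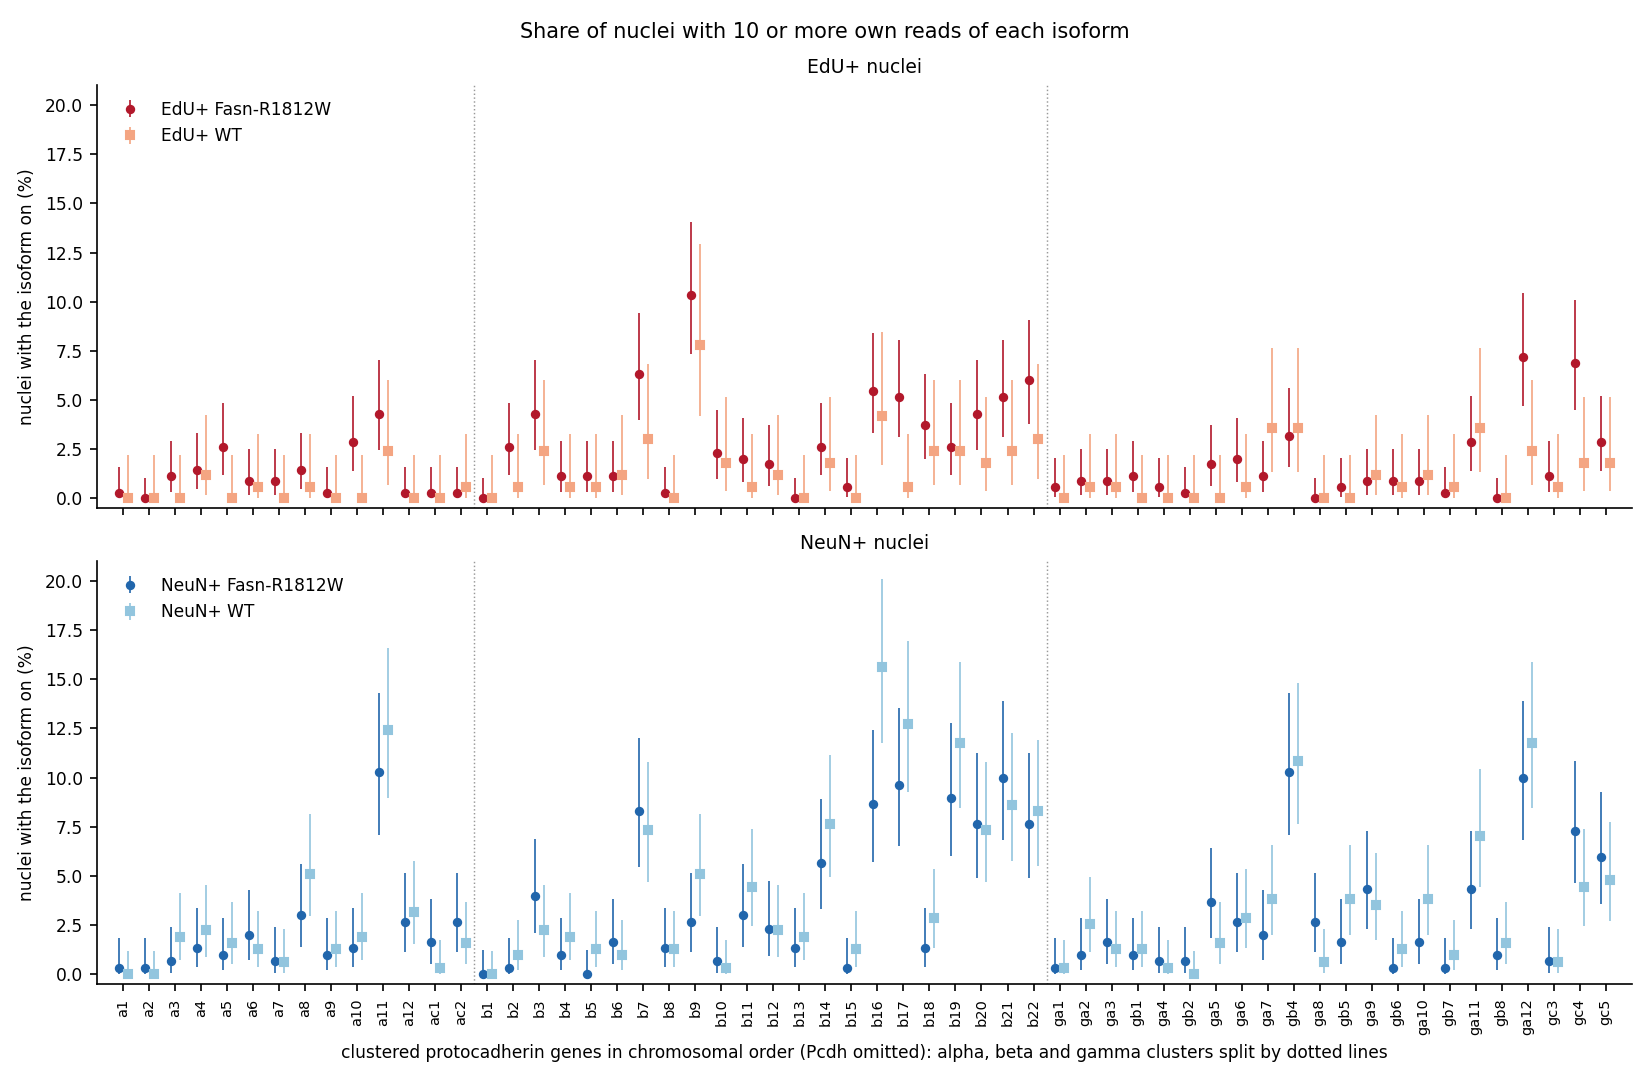
Share of kept nuclei in percent (y) with at least 10 own reads of each of the 58 isoforms in chromosomal order (x), with Clopper-Pearson 95% intervals as bars; EdU+ Fasn-R1812W and EdU+ WT are in the upper panel, NeuN+ Fasn-R1812W and NeuN+ WT in the lower. No isoform passes 15.6% of nuclei in any library; Pcdhb9 leads the EdU+ libraries, and Pcdhb16, Pcdhb17, Pcdha11 and Pcdhga12 are among the highest in NeuN+.

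Levels compared per kilobase of own exon put the same member first in both EdU+ libraries and different ones in the NeuN+ libraries, with own reads divided by the bases that lie in 1 row alone. Pcdhb9 led EdU+ Fasn-R1812W at 34.5 CPM per kb, ahead of Pcdhb3 at 14.8 and Pcdhb7 at 13.99, and led EdU+ WT at 25.3, ahead of Pcdhb10 at 21.02 and Pcdhb21 at 10.2. In NeuN+ Fasn-R1812W the first were Pcdhgc4 at 7.998, Pcdhgb4 at 7.31 and Pcdha11 at 6.55 CPM per kb. In NeuN+ WT they were Pcdhb17 at 8.94, Pcdhb16 at 8.42 and Pcdhb9 at 8.07. Summed over a subcluster, own reads came to 482, 380, 184 and 295 CPM for beta, 62.3, 18.4, 67.3 and 72.0 for alpha, 88.1, 75.5, 55.5 and 78.9 for gamma A, 47.4, 42.7, 38.2 and 45.4 for gamma B, and 56.5, 70.4, 55.5 and 29.4 for the C-type genes, in the order EdU+ Fasn-R1812W, EdU+ WT, NeuN+ Fasn-R1812W and NeuN+ WT. These sums are not per length and compare libraries, not subclusters.

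Sets of 2 or more isoforms were nearly all different from nucleus to nucleus. With 58 isoforms very many such sets are possible. How many would differ under random choice was not worked out, so this does not test the choice. Among the nuclei with at least 2 isoforms on, 116 EdU+ Fasn-R1812W nuclei held 110 different sets, 18 EdU+ WT nuclei held 18, 145 NeuN+ Fasn-R1812W nuclei held 136 and 168 NeuN+ WT nuclei held 162. Sets seen more than once numbered 5, 0, 6 and 4, and the pair of Pcdhb21 and Pcdhb22, whose exons overlap, was among them in EdU+ Fasn-R1812W and NeuN+ Fasn-R1812W. The nuclei with exactly 1 isoform on were spread over 37, 33, 30 and 35 isoforms. The most frequent of these was Pcdhb9 in EdU+ Fasn-R1812W and in EdU+ WT, with 10 nuclei in each, Pcdhgb4 in NeuN+ Fasn-R1812W with 9, and Pcdhb16 in NeuN+ WT with 9.

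At full depth, the median pair of isoforms of a subcluster shared a nucleus more often than their separate frequencies give. The counts behind this are small, and the ratio does not correct for the depth of each nucleus. Among isoforms on in at least 10 NeuN+ nuclei by own reads, the median ratio of observed to expected nuclei with both on was 2.25 over 4 neighbouring pairs in NeuN+ Fasn-R1812W and 1.65 over 8 in NeuN+ WT. Summed over these neighbouring pairs, 19 and 25 nuclei had both on. Pairs of a subcluster further apart had medians of 1.33 over 38 pairs and 1.45 over 51, with a median of 2 and 3 nuclei per pair. Pairs from different subclusters had median ratios of 1.04 over 93 and 1.13 over 171. With nuclei thinned to 50000 reads few isoforms were left, and the median was 0 over 9 pairs of a subcluster further apart in NeuN+ Fasn-R1812W, where no neighbouring pair remained. In NeuN+ WT it was 1.39 over 18 such pairs and 2.20 over 3 neighbouring ones, and pairs from different subclusters had medians of 0 over 11 in NeuN+ Fasn-R1812W and 0.68 over 15 in NeuN+ WT. The overlapping pair Pcdhb21 and Pcdhb22 was set apart, with 11 nuclei against 2.29 expected in NeuN+ Fasn-R1812W and 16 against 2.24 in NeuN+ WT. Close copies without overlapping exons, which may also share reads, were not set apart. Pcdhb19 and its neighbour Pcdhb20 shared 9 nuclei against 2.06 expected in NeuN+ Fasn-R1812W and 5 against 2.71 in NeuN+ WT. With the rows as deposited the medians were 2.25 and 1.99 for neighbours, 2.21 and 1.94 for pairs further apart and 1.07 and 1.16 between subclusters, values that the shared reads fix in large part. Members of a nucleus share its library and depth, so these ratios are a description with no test.

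Neuronal classes were taken from clusters made without the clustered protocadherin genes and named from marker lists. Levels by class are not per length, and the shared exons span 2860 bases in alpha and 2116 in gamma. GABAergic-like neurons carried more shared alpha than shared gamma reads in both NeuN+ libraries. They numbered 40 in NeuN+ Fasn-R1812W and 33 in NeuN+ WT, with 270 and 260 CPM of shared alpha reads and 96.2 and 91.7 CPM of shared gamma reads. At least 10 shared alpha reads were found in 67.5% and 57.6% of them, and at least 10 shared gamma reads in 12 of 40 and 12 of 33. CA1-like pyramidal neurons, 65 in NeuN+ Fasn-R1812W and 46 in NeuN+ WT, had 116 and 197 CPM of shared alpha and 213 and 206 CPM of shared gamma reads. Their shared gamma level was thus above that of the GABAergic-like neurons in both libraries, and their shared alpha level was lower. In CA3-like neurons, 21 and 12 nuclei, shared alpha reads stood at 97.2 and 134 CPM and shared gamma reads at 116 and 112 CPM. Dentate granule-like neurons, 45 and 98 nuclei, had 127 and 188 CPM of shared alpha reads and 101 and 178 CPM of shared gamma reads. The lowest gamma levels were in subicular or entorhinal-like neurons, 19 and 11 nuclei, with 30.4 and 20.8 CPM against 68.6 and 174 CPM of shared alpha reads. A cluster led by Dcn, Col6a1 and Col6a2, 35 and 14 nuclei, had 190 and 98.0 CPM of shared alpha and 134 and 42.7 CPM of shared gamma reads.

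**Figure D3:**
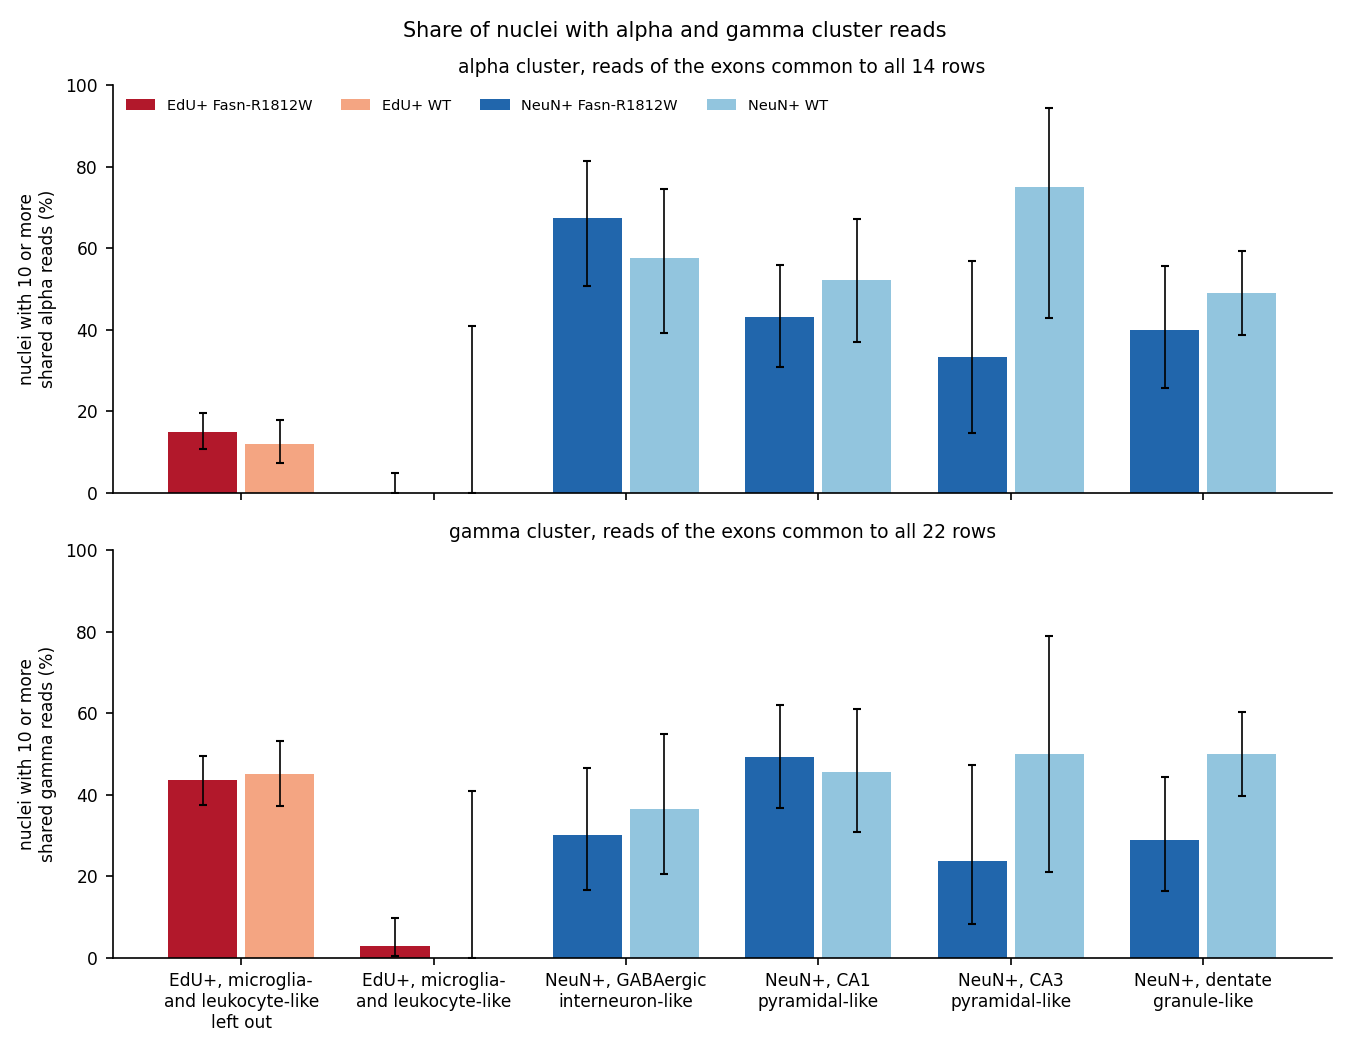
Share of nuclei in percent with at least 10 shared alpha reads (top) and at least 10 shared gamma reads (bottom) in each class of nuclei, with Clopper-Pearson 95% intervals, Fasn-R1812W and WT libraries side by side. GABAergic-like neurons are among the highest for alpha at 67.5% and 57.6%, while EdU+ nuclei other than microglia- and leukocyte-like ones reach 43.5% and 45.0% for gamma and 14.9% and 11.9% for alpha.

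The number of isoforms on by own reads varied more among the nuclei of a class than between most classes. GABAergic-like neurons had a mean of 2.33 ± 2.20 isoforms on in NeuN+ Fasn-R1812W and 2.94 ± 2.28 in NeuN+ WT, where the SD is over nuclei of 1 library. CA1-like neurons had 1.97 ± 1.57 and 2.11 ± 1.57, CA3-like neurons 2.43 ± 1.94 and 3.5 ± 1.57, and granule-like neurons 1.49 ± 1.25 and 1.80 ± 1.57. Within a library, each difference between these 4 class means was smaller than the SD over nuclei of either class, except that between CA3-like and granule-like neurons of NeuN+ WT. Counted as deposited, the class medians were 16 and 17 rows for GABAergic-like, 19 and 18 for CA1-like, 6 and 20 for CA3-like and 14 and 21 for granule-like neurons.

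Single isoforms also appeared in several classes. Pcdhb16 was on in 2 of 45 granule-like nuclei of NeuN+ Fasn-R1812W and in 21 of 98 of NeuN+ WT, and Pcdhb17 in 9 of 21 CA3-like nuclei of NeuN+ Fasn-R1812W and in 1 of 12 of NeuN+ WT. Among CA1-like nuclei, Pcdhb17 was on in 4 of 65 of NeuN+ Fasn-R1812W and 10 of 46 of NeuN+ WT, so the order of the libraries turned with the class. Pcdhgc5 was on in 7 of 65 CA1-like nuclei of NeuN+ Fasn-R1812W and in 0 of 46 of NeuN+ WT. Pcdhgc4 was on in 4 of 40 and 4 of 33 GABAergic-like nuclei of NeuN+ Fasn-R1812W and NeuN+ WT. In the same order, it was on in 2 of 21 and 2 of 12 CA3-like and 4 of 65 and 1 of 46 CA1-like nuclei. Granule-like nuclei had it on in 2 of 45 and 4 of 98, and the cluster led by Dcn in 5 of 35 and 0 of 14. It was thus not particular to GABAergic-like neurons. The granule-like class was made of 2 clusters, which held 17 and 28 nuclei of NeuN+ Fasn-R1812W and 46 and 52 of NeuN+ WT, and the CA3-like class of 2 that held 8 and 13 against 8 and 4.

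In EdU+ Fasn-R1812W the members were read almost wholly outside the immune nuclei. Microglia- and leukocyte-like clusters held 72 EdU+ Fasn-R1812W and 7 EdU+ WT nuclei, and the microglia-like one was led by Slfn4, Csf3r and S100a8, immune genes also found in neutrophils. At least 10 shared alpha reads were seen in 0 of 72, which allows a share of up to 4.17%, and at least 10 shared gamma reads in 2.78%, and a beta isoform was on in 1 of 72. These EdU+ Fasn-R1812W shares, at a median of 301678 reads per nucleus, were taken as a background level. The 7 EdU+ WT nuclei are too few to give one for that library. In the other 276 EdU+ Fasn-R1812W and 160 EdU+ WT nuclei, at least 10 shared alpha reads were seen in 14.9% and 11.9% and at least 10 shared gamma reads in 43.5% and 45.0%, at medians of 215474 and 80184 reads. The level of shared gamma reads there was 430 and 452 CPM, against 146 and 119 CPM for shared alpha reads. Nuclei with at least 10 reads of Pdgfra had 468 and 531 CPM of shared gamma reads and a mean of 1.58 and 0.67 isoforms on. Mature oligodendrocyte-like nuclei, 49 and 25, had 603 and 550 CPM of shared gamma reads, and Pcdhb9 was on in 8 and 5 of them, at 218 and 216 CPM. Neuroblast-like nuclei, 23 and 15, had 323 and 287 CPM of shared gamma reads. Pcdhgc4 was on in 5 of the 23 in EdU+ Fasn-R1812W, where 1 nucleus held 50.8% of its reads. It was on in 0 of the 15 in EdU+ WT.

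The balance between the gamma and alpha clusters differed between the gates. Shared gamma reads stood at 331 CPM in EdU+ Fasn-R1812W and 427 CPM in EdU+ WT, against 138 CPM in NeuN+ Fasn-R1812W and 162 CPM in NeuN+ WT. Shared alpha reads stood at 107 and 113 CPM in the EdU+ libraries, against 142 and 173 CPM in the NeuN+ libraries. Both pairs of values did not overlap between gates, in opposite directions. How many of all genes separate the gates in this way was not counted, and the main edgeR fit below called neither. The ratio of gamma to alpha shared reads was 3.11 and 3.79 in EdU+ Fasn-R1812W and EdU+ WT, against 0.970 and 0.934 in NeuN+ Fasn-R1812W and NeuN+ WT. The shared alpha exons are longer, and per kilobase the ratio was 4.20 and 5.13 against 1.31 and 1.26. Per kilobase, gamma thus stood above alpha in each library. By nuclei, at least 10 shared alpha reads were seen in 11.8% and 11.4% of EdU+ nuclei, against 44.2% and 49.0% of NeuN+ nuclei, and at least 10 shared gamma reads in 35.1% and 43.1%, against 37.9% and 47.1%. After thinning to 50000 reads the alpha shares were 9.48% and 9.70%, against 25.6% and 29.3%, and the gamma shares 28.2% and 38.8%, against 24.9% and 26.1%.

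A fit over all genes and all 4 libraries, with gate and genotype as terms, called 7.69% of 14040 genes between the gates at an adjusted p under 0.05, of which 633 were higher in EdU+ (4.51%) and 447 lower (3.18%). It called 0 of the 51 members tested, against 40 members called by DESeq2, which called 39.9% of all genes. By edgeR's quasi-likelihood test 24 members had an unadjusted p under 0.05: the 22 gamma rows, Pcdhb9 and Pcdhb10. The share of all genes under that limit is not given. Counts of members under it, here and for own reads below, are therefore no result about the members. All 22 gamma rows had log2 differences of EdU+ over NeuN+ between 1.18 and 1.32 and all 14 alpha rows between −0.63 and −0.47, 1 shared signal each, while the median was 1.21 over the members and −0.03 over all genes. With the shared reads entered once for each cluster, the log2 difference was 1.29 for gamma, with an edgeR adjusted p of 0.0582, and −0.56 for alpha, with an adjusted p of 0.418. That gamma value was called in some settings and not in others, with an adjusted p of 0.0408 by edgeR without the genotype term, 1.50e-15 by DESeq2, and 0.00133 without EdU+ Fasn-R1812W, 0.0171 without EdU+ WT, 0.266 without NeuN+ Fasn-R1812W and 0.172 without NeuN+ WT by edgeR. In the fit with own reads, 8.79% of 14031 genes were called and 0 of 29 members, with 2 at an unadjusted p under 0.05. These 2 were Pcdhb10, with a log2 difference of 4.79 ± 1.35 (SE) and an edgeR adjusted p of 0.0871, and Pcdhb9, with 3.33 ± 1.03 (SE) and an adjusted p of 0.109. Pcdhb10 had 9.99 and 59.9 CPM in EdU+ Fasn-R1812W and EdU+ WT, against 1.15 and 0.63 CPM in NeuN+ Fasn-R1812W and NeuN+ WT, and was on in 8 and 3 nuclei against 2 and 1. Pcdhb9 had 105 and 77.3 CPM in the EdU+ libraries against 3.05 and 24.7 CPM in the NeuN+ libraries. The fit had 1 residual degree of freedom. On simulated counts with the same dispersion for every gene, it recovered 11 of 50 genes raised 16-fold and 0 of 50 raised 4-fold. Real genes differ in dispersion, and the fit called Ptk2b at a log2 difference of −1.99. The simulation therefore does not set the smallest change that can be called. The gates hold different cell types, so more cells of a type and more RNA per cell cannot be told apart in these pooled values.

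No member was called between genotypes in the joint fit. It called 0% of 14040 genes and 0 of 51 members by edgeR, with 0 members at an unadjusted p under 0.05. DESeq2 called 2.79% of all genes and 0 members, with 13 members at an unadjusted p under 0.05. The share of all genes under that unadjusted limit is not given, so these 13 are no result about the members. The median log2 difference of Fasn-R1812W over WT was −0.27 over the members and 0.02 over all genes. The fit can find only a change shared by both gates. Within a gate each genotype had 1 library, so the ratios there have no replicate check, and they are given as log2 ratios of pooled CPM after adding 1 CPM.

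In the NeuN+ gate, 6.20% of 10874 genes were at least 2-fold apart, 3.17% higher and 3.03% lower in Fasn-R1812W. Of the 45 members that passed the filter on low values, 0 were at least 2-fold higher and 2 were at least 2-fold lower. Pcdhb9 had 3.05 CPM (2.65 to 3.49) in NeuN+ Fasn-R1812W and 24.7 CPM (23.5 to 25.8) in NeuN+ WT, a log2 ratio of −2.66, and was on in 8 and 16 nuclei. Pcdhb17 had 14.6 CPM (13.7 to 15.5) and 41.6 CPM (40.1 to 43.2), a log2 ratio of −1.45, and was on in 29 and 40 nuclei. The median over the members was −0.25, against 0.02 over all genes. With own reads, 15 members passed the filter, 6.22% of all genes were at least 2-fold apart, and Pcdhgc4 was added as higher, at 27.8 against 13.3 CPM, with 39.2% of its NeuN+ Fasn-R1812W reads in 1 nucleus.

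In the EdU+ gate, 25.4% of 9195 genes were at least 2-fold apart, 17.4% higher and 8.0% lower in Fasn-R1812W, and these libraries also differed in depth and in their share of immune nuclei. Of 46 members that passed the filter, 36 of them alpha and gamma rows that repeat the shared reads, 4 were higher and 1 was lower. Pcdhb2 had 26.9 CPM in EdU+ Fasn-R1812W and 0.998 CPM in EdU+ WT, a log2 ratio of 3.80, with 9 and 1 nuclei on. Pcdhb3 had 55.9 and 4.92 CPM, a log2 ratio of 3.26, with 15 and 4 nuclei on. Pcdhb17 had 24.3 and 3.26 CPM, a log2 ratio of 2.57, with 18 and 1 nuclei on, the opposite direction to NeuN+. Pcdhb20 had 40.7 and 12.7 CPM, a log2 ratio of 1.61. Pcdhb21 had 18.3 and 43.3 CPM, a log2 ratio of −1.20, with 67.0% of its EdU+ WT reads in 1 nucleus. With the relaxed nucleus filter of 300 genes and 20000 reads, which kept 352 EdU+ WT nuclei, the log2 ratios were 0.60 for Pcdhb2, 0.76 for Pcdhb3, 0.84 for Pcdhb17 and −0.41 for Pcdhb21, all under 2-fold. Without any nucleus filter they were 0.82 for Pcdhb3, 0.90 for Pcdhb17, 2.64 for Pcdhb20 and −0.36 for Pcdhb21. For Pcdhb21 the log2 ratio was −0.17 without the nucleus that held most reads in each library and 2.56 with the strict filter, which kept 5 EdU+ WT nuclei. With own reads, 14 members passed and Pcdha11 and Pcdhga12 were added as higher, at 23.75 against 10.04 CPM and 32.1 against 6.65 CPM, where 25.4% of all genes were at least 2-fold apart.

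**Figure D4:**
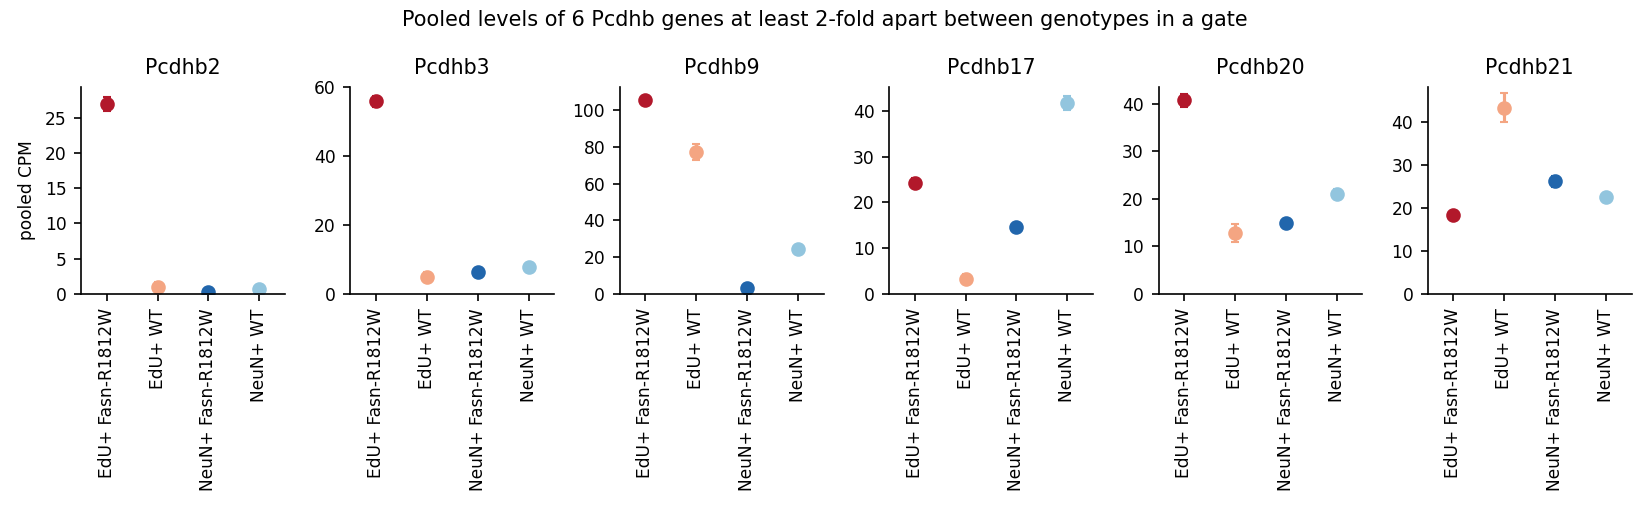
Pooled level in CPM (y) of the 6 isoforms whose deposited rows were at least 2-fold apart between genotypes in a gate, in EdU+ Fasn-R1812W, EdU+ WT, NeuN+ Fasn-R1812W and NeuN+ WT, with exact Poisson 95% intervals as bars. Pcdhb17 was higher in EdU+ Fasn-R1812W than in EdU+ WT, at 24.3 and 3.26 CPM, and lower in NeuN+ Fasn-R1812W than in NeuN+ WT, at 14.6 and 41.6 CPM.

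Genes that act on or with the clustered protocadherins are given beside the 7.69% of all genes called between the gates by edgeR. Of 19 genes of promoter choice and looping, 0 were called between the gates, with a median log2 difference of 0.40, and 0 between genotypes, with a median of 0.03. By its mean over the 4 libraries the best expressed was Nipbl, which loads cohesin, at 381, 209, 220 and 227 CPM in EdU+ Fasn-R1812W, EdU+ WT, NeuN+ Fasn-R1812W and NeuN+ WT. Of 18 tested genes of cytoplasmic partners and processing, 1 rose and 1 fell in EdU+ relative to NeuN+, with a median of −0.24. Marcks, a membrane-bound actin regulator downstream of the gamma protocadherins in mouse cortical dendrites, rose to 648 and 556 CPM in EdU+ Fasn-R1812W and EdU+ WT, against 61.7 and 126 CPM in NeuN+ Fasn-R1812W and NeuN+ WT, with a log2 difference of 2.73 and an edgeR adjusted p of 0.0221. Ptk2b, a focal adhesion kinase that clustered protocadherins hold in check, fell to 90.8 and 79.0 CPM in the EdU+ libraries, against 304 and 354 CPM in the NeuN+ libraries, with −1.99 and an edgeR adjusted p of 0.0276.

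Of 11 tested non-clustered protocadherins, single genes elsewhere in the genome, 2 rose in EdU+ and none fell by edgeR, against 4.51% of all genes higher and 3.18% lower, with a median log2 difference of 0.03. Pcdh15, known for the tip links of inner-ear hair cells and also expressed in oligodendrocyte precursors, had 1340 and 1187 CPM in EdU+ Fasn-R1812W and EdU+ WT, against 67.2 and 88.3 CPM in NeuN+ Fasn-R1812W and NeuN+ WT, with a log2 difference of 4.00 and an edgeR adjusted p of 0.0068. Pcdh11x had 165 and 310.5 CPM in the EdU+ libraries, against 21.2 and 65.1 CPM in the NeuN+ libraries, with 2.57 and an edgeR adjusted p of 0.0210. Both stood higher in each EdU+ library than in either NeuN+ library, as did Pcdh7, Pcdh9 and Pcdh10, which were not called. Pcdh8, Pcdh19 and Pcdh20 stood lower in each EdU+ library than in either NeuN+ library. How many of all genes separate the gates in this way was not counted. Pcdh9 had 546 and 677 CPM against 432 and 483 CPM and was not called. Between genotypes 0 genes of these lists were called by edgeR, with medians of 0.00 for the cytoplasmic partners and −0.24 for the non-clustered protocadherins.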

How the data were processed

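The deposited tables held read counts per gene and well, whole numbers with no normalization by the authors, for 4 libraries with 1 library per group; 0 columns were left unused. The submitters' processing notes name Trimmomatic 0.36, STAR 2.5.3a and build GRCm38.p5. Which program counted the reads, with what annotation and strand setting, is not given in the sources used here. Exon positions came from GENCODE M21 on the same build, and 57 of the 58 member symbols equalled the nearest RefSeq gene.

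Wells with at least 1000 genes and 50000 reads were kept. In each nucleus the smallest alpha or gamma row was taken as the cluster's shared reads and subtracted from its rows to give own reads, and an isoform was on at 10 reads. Counts were summed per library and scaled to CPM over all genes but those of the mitochondrial genome. Because a library is 1 sample, genotype ratios within a gate (prior 1 CPM, genes with 10 CPM and a read in 10% of nuclei in either library) have no test. Gate and genotype were tested over all 4 libraries with edgeR 4.0.16 (TMM, quasi-likelihood, genes with 10 CPM in a library, Benjamini-Hochberg over all genes, threshold 0.05, 1 residual degree of freedom), with DESeq2 1.42.0 as an alternative, in R 4.3.3. The edgeR fit was tested on simulated counts of 13119 genes, all drawn with the common dispersion of 0.415. P-values measure only the spread between these libraries. Nuclei were clustered per gate with scanpy 1.11.5 and igraph 0.11.9 (2000 variable genes, 20 components, 15 neighbours, Leiden resolution 1) without the members. Doublets were not called, and an alternative dropped the 5% of nuclei richest in genes. Python 3.11.15, numpy 2.4.6, pandas 2.3.3 and scipy 1.17.1 were used.

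The members, lists, markers and rules were chosen with earlier results of these data known. Named genes were all C-type isoforms, the 3 most and the 1 least frequent of each other subcluster in the NeuN+ libraries, members at least 2-fold apart, and up to 4 of each other list by level or by call. Pcdhb10, Pcdhb9 in the gate comparison, the highest members per kilobase and the isoforms given by class were chosen after their values were seen. So were the pair of Pcdhb19 and Pcdhb20, the split into own and shared reads and the split of EdU+ nuclei by Pdgfra. The embryonic nuclei of the series were not analysed here.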

Additional observations from a re-analysis of the deposited data

Results flagged for a closer look

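Pcdhb17 moved in opposite directions between genotypes in the 2 gates. Its log2 ratio of Fasn-R1812W over WT was 2.57 in EdU+ nuclei, at 24.3 and 3.26 CPM, and −1.45 in NeuN+ nuclei, at 14.6 and 41.6 CPM. Each value compares 1 library with 1 library, and the difference between the gates was not tested. In the EdU+ WT library the level rests on 49 reads, of which 61.2% came from 1 nucleus, and with the relaxed nucleus filter the EdU+ ratio was 0.84.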

How the results depend on the processing

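Of the members, 0 were called between gates by edgeR; 40 were called by DESeq2 (39.9% of all genes), 6 with library totals in place of TMM (9.25%), 22 with the relaxed nucleus filter (13.5%), 23 without a nucleus filter (14.8%), 24 with nuclei thinned to 50000 reads (13.6%), 22 without the genotype term (9.86%), and 0 to 25 when a library was left out. The count was 25 without EdU+ Fasn-R1812W, where 34.8% of all genes were called, 25 without EdU+ WT (29.97%), 0 without NeuN+ Fasn-R1812W (5.72%) and 1 without NeuN+ WT (4.92%). The 22 gamma rows carry the same shared reads. The genotype term called 0 in each alternative run. Members at least 2-fold apart numbered 5 in NeuN+ without a gene filter, and in EdU+ 1 with the relaxed filter, 25 with the strict filter, 1 without a nucleus filter and 11 without a gene filter. The share of all genes at least 2-fold apart is not given for these settings, so these counts are no result about the members. The log2 ratio of Pcdhb21 in EdU+ turned to 2.56 with the strict filter, where EdU+ WT kept 5 nuclei.

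Deposited rows on per nucleus had medians of 24 in EdU+ Fasn-R1812W, 22 in EdU+ WT, 24 in NeuN+ Fasn-R1812W and 36 in NeuN+ WT with 1 read as on, of 14 and 15 in NeuN+ Fasn-R1812W and NeuN+ WT with 20 reads and of 1, 1, 2 and 3 in EdU+ Fasn-R1812W, EdU+ WT, NeuN+ Fasn-R1812W and NeuN+ WT after thinning. In EdU+ WT they were 15 with 5 reads or 50 CPM as on, and in NeuN+ Fasn-R1812W 17 with 5 reads, 14.5 with the relaxed and 17 with the strict filter. Nuclei with any deposited row on made up 97.7%, 85.0%, 98.7% and 99.7% of the 4 libraries with 1 read as on, in the order EdU+ Fasn-R1812W, EdU+ WT, NeuN+ Fasn-R1812W and NeuN+ WT. In NeuN+ Fasn-R1812W and NeuN+ WT they made up 96.0% and 96.2% with 5 reads, 77.4% and 86.3% with 20 reads, 75.4% and 79.0% after thinning and 88.6% and 90% with the relaxed filter. EdU+ Fasn-R1812W had 62.6% after thinning, and EdU+ WT had 60.5% with the relaxed and 60% with the strict filter.

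Co-occurrence of deposited rows in NeuN+ Fasn-R1812W and NeuN+ WT was 3.10 and 2.42 for neighbours and 2.89 and 2.40 for pairs further apart with 20 reads, and 3.81 and 3.41 and 3.76 and 3.34 after thinning. By class, thinned medians in NeuN+ Fasn-R1812W and NeuN+ WT were 1 and 8.5 for granule-like and 3 and 2.5 for CA1-like neurons, and GABAergic-like neurons of NeuN+ Fasn-R1812W had 14 after thinning and 14 with 20 reads. Own isoforms on per nucleus had means of 3.47, 1.31, 4.11 and 4.62 with 1 read as on and of 1.05, 0.51, 1.14 and 1.46 with 20 reads in EdU+ Fasn-R1812W, EdU+ WT, NeuN+ Fasn-R1812W and NeuN+ WT. The causes were not tested. No paired analysis was possible because each group holds replicate 1 alone. With 10 reads needed, an isoform present at a lower level in a nucleus is not detectable, and most in EdU+ WT, the shallowest library.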
